A study of Mus musculus with 384 samples.

Results

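The STAT5 and feedback genes comprised 10 genes of the 46078 gene rows measured: the feedback inhibitors Cish, Socs1, Socs2 and Socs3, the kinases Pim1 and Pim2, the cytokine Osm, and the transcription factors Stat5a, Stat5b and Stat3. They were chosen by name, each from 1 Ensembl row, and all 10 were measured and tested. RNA was read in single granulocyte/macrophage progenitors (GMPs) sorted from bone marrow of C57Bl/6 mice by the gate lin-/c-Kit+/Sca-1-/CD34+/FcγR+. The BCR-ABL group held 3 sets of 96 wells, replicates 1, 2 and 4, from Scl-tTA::TRE-BCR/ABL mice, in which a transactivator under Scl regulatory sequence drives the BCR/ABL transgene once doxycycline is withdrawn. These mice were bred on 20 mg/L doxycycline in the drinking water, doxycycline was withdrawn at 5 weeks of age, and marrow was taken 5 to 6 weeks later. The Control group held 1 set of 96 wells from control mice analysed over the same interval, whose genotype the labels do not give. The sample entries for the Control wells list the same 20 mg/L doxycycline and the same induction age of 5 weeks. The labels say neither whether a set was 1 animal nor which bones were crushed and which flushed.

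BCR/ABL is the fusion kinase of chronic myeloid leukaemia, and it phosphorylates STAT5 without need of a cytokine. Phosphorylated STAT5 and STAT3 enter the nucleus and bind the palindrome TTCNNNGAA near their targets, among them Cish, the Socs genes, Pim1, Pim2 and Osm. CISH and the SOCS proteins then bind receptors or Janus kinases and damp the signal, so their transcripts are widely used as a readout of STAT activity, whereas the RNA of Stat5a and Stat5b reports the supply of the factor and not its phosphorylation.

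The windows shown are those found to hold the palindrome. They belong to the 2 feedback genes with the largest fold changes below. A link of the palindrome to those levels was not tested. RefSeq windows of 300 bases (GRCm38.p6, 250 before to 50 after a transcript start) were at hand for 8 of the 10 genes, in 11 windows, and not for Socs2 and Osm. TTCNNNGAA, which reads the same way on both strands, was present in 2 of these 11 windows, those of Cish and Socs3. Among all 32851 windows, 8.30% held at least 1 copy and 0.457% held 2 or more. In the sequences, given 5′ to 3′ on the strand of the gene, capitals mark the palindrome.
Cish, chr9:107296409-107296708, plus strand: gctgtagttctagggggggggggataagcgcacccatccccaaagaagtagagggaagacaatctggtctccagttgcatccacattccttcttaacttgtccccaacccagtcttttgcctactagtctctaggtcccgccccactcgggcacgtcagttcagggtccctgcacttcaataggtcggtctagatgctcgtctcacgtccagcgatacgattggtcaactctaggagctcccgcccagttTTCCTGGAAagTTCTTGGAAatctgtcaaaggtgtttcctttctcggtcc
Socs3, chr11:117969317-117969616, minus strand: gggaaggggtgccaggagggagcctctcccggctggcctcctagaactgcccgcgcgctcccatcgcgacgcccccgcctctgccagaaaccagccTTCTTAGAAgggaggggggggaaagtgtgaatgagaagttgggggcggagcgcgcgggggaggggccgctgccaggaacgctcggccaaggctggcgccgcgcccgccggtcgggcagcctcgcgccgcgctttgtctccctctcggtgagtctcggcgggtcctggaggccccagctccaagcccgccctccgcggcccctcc
The Cish window held 2 copies, TTCCTGGAA and TTCTTGGAA, beginning at positions 1 and 12 counted from the RefSeq start as 1. The Socs3 window held 1 copy, TTCTTAGAA, beginning at position -154, upstream of that start. A match of letters is not evidence of binding, and no binding was measured.

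Wells were kept when they had 50000 gene reads or more and 1000 detected genes or more, which held for 323 of 384, with 76, 61 and 92 cells in BCR-ABL replicates 1, 2 and 4 and 94 in Control. Reads on genes summed to 126157027, 121378632 and 140995697 in the BCR-ABL sets and 139684338 in Control, and levels are given in CPM, the count of a gene scaled to these totals. Of the gate's own genes, Kit and Fcgr3 were read in every set, at 240 to 314 and 569 to 688 CPM in BCR-ABL and at 239 and 583 CPM in Control. Cd34 was read at 146, 180 and 158 CPM in BCR-ABL and at 440 CPM in Control. The sets also differed in lineage state. The 12 monocyte markers, none at 0, summed to 2315, 2631 and 1515 CPM in BCR-ABL and 4778 CPM in Control. Cells with 10 or more reads of Irf8, a monocyte lineage factor, were 41.5%, 62.96% and 19.8% of BCR-ABL cells and 84.4% of Control cells at equal depth. Xist was read at 5 CPM or more in 75 of 76, 0 of 61 and 3 of 92 BCR-ABL cells and in 94 of 94 Control cells, so sex-linked RNA also differed between the sets. The deposited rows are mouse genes and give no value for the human fusion transcript. Mouse Abl1 was at 29.6, 31.3 and 32.3 CPM in BCR-ABL and 35.96 CPM in Control, and Bcr at 21.1, 21.7 and 18.3 CPM in BCR-ABL and 26.04 CPM in Control.

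Cells of 1 set are not replicates, so reads were added up per set, and the 3 BCR-ABL totals were tested against the Control total. In that comparison 0 of the 10 genes had an adjusted p under 0.05 in edgeR's quasi-likelihood test, against 0% of the 20324 genes tested, where the smallest adjusted p was 0.594. At an unadjusted p under 0.05 edgeR gave 2 of the 10, Socs3 and Stat3, both higher in BCR-ABL, against 7.18% of all genes (3.79% higher and 3.39% lower in BCR-ABL). All 3 BCR-ABL sets lay above Control for Cish, Socs3 and Stat3, 3 genes, where 23.2% of all genes did so. All 3 lay below Control for Socs1, Stat5a and Stat5b, 3 genes, where 27.8% of all genes did so. The median log2 fold change was -0.09 over the 10 genes and 0.05 over all genes tested. DESeq2 called 1 of the 10, Socs3, and 562 genes in all, 2.77% of those tested, and limma-voom called 0. With 1 Control set, the smallest exact two-sided permutation p for any single gene is 0.25, and condition and set cannot be told apart.

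**Figure D1:**
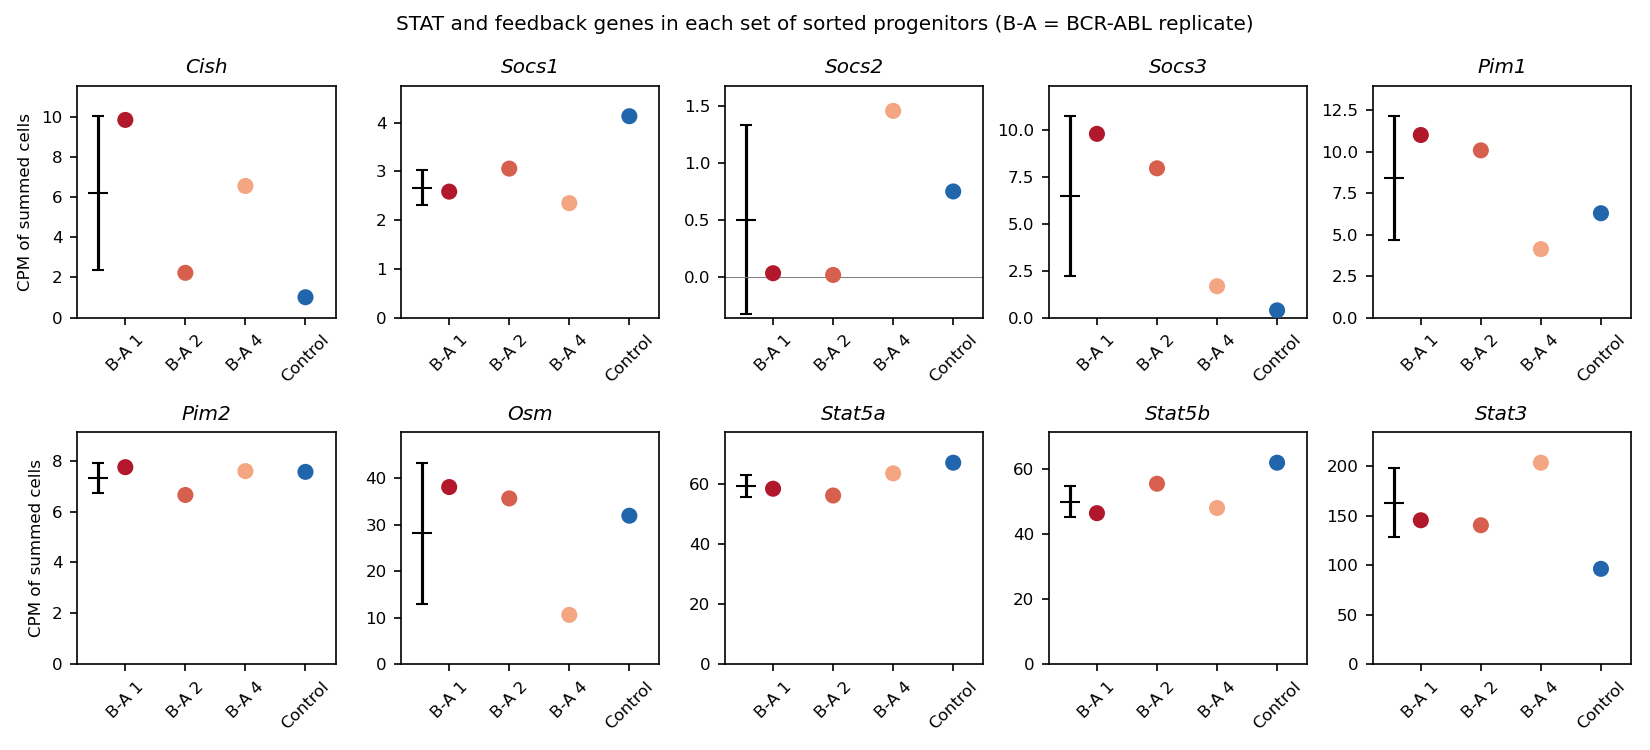
Level of each gene in each set (y axis: CPM of summed cells, linear, own scale per gene) in BCR-ABL replicates 1, 2 and 4 and in Control (x axis). Points are sets, and the bar at the left is the BCR-ABL mean ± SD of 3 sets; Stat3 lies at 140 to 203 CPM in BCR-ABL and 96.2 CPM in Control.

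Stat3, the factor that carries IL-6 and G-CSF signals in myeloid cells, was higher in all 3 BCR-ABL sets. It stood at 145, 140 and 203 CPM in BCR-ABL replicates 1, 2 and 4 and at 96.2 CPM in Control. Every BCR-ABL set lay above Control, and replicate 4 was the highest. The means were 163 ± 35.1 CPM in BCR-ABL (SD, n = 3) and 96.2 CPM in Control (n = 1), a ratio of 1.69. The log2 fold change was 0.78 with a standard error of 0.26 (edgeR p = 0.0363, adjusted p = 0.669). The gene (ENSMUSG00000004040) lies at chr11:100885098-100939540 on the minus strand (mm10) and its 3′ end shares 72 exonic bases with the 3′ end of Stat5a on the other strand. With the strand setting of the counting not given, reads in those bases cannot be assigned to either gene.

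The difference in Stat3 was spread over many cells and not carried by a few. For this count each cell was thinned to 674952 reads, which left 65, 54 and 81 BCR-ABL cells and 90 Control cells. The median cell held 135, 131 and 169 CPM of Stat3 in BCR-ABL and 62.97 CPM in Control. Above the Control median lay 83.1%, 74.1% and 85.2% of BCR-ABL cells, and no Stat3 read was found in 1, 2 and 1 BCR-ABL cells and in 9 Control cells. Cells with 10 or more Stat3 reads made up 95.4%, 88.9% and 95.1% of BCR-ABL cells, with exact 95% intervals of 87.1 to 99.0%, 77.4 to 95.8% and 87.8 to 98.6%, and 76.7% of Control cells, with an interval of 66.6 to 84.9%. These intervals cover counting error within a set only, since cells of 1 set are not replicates. The reads also carry no molecular identifiers. At 30 or more reads the shares were 86.2%, 85.2% and 90.1% in BCR-ABL and 57.8% in Control, so the gap was wider at the higher read limit. The cell with the most reads held 5.19%, 6.06% and 8.75% of the set's Stat3 reads in BCR-ABL and 8.03% in Control.

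**Figure D2:**
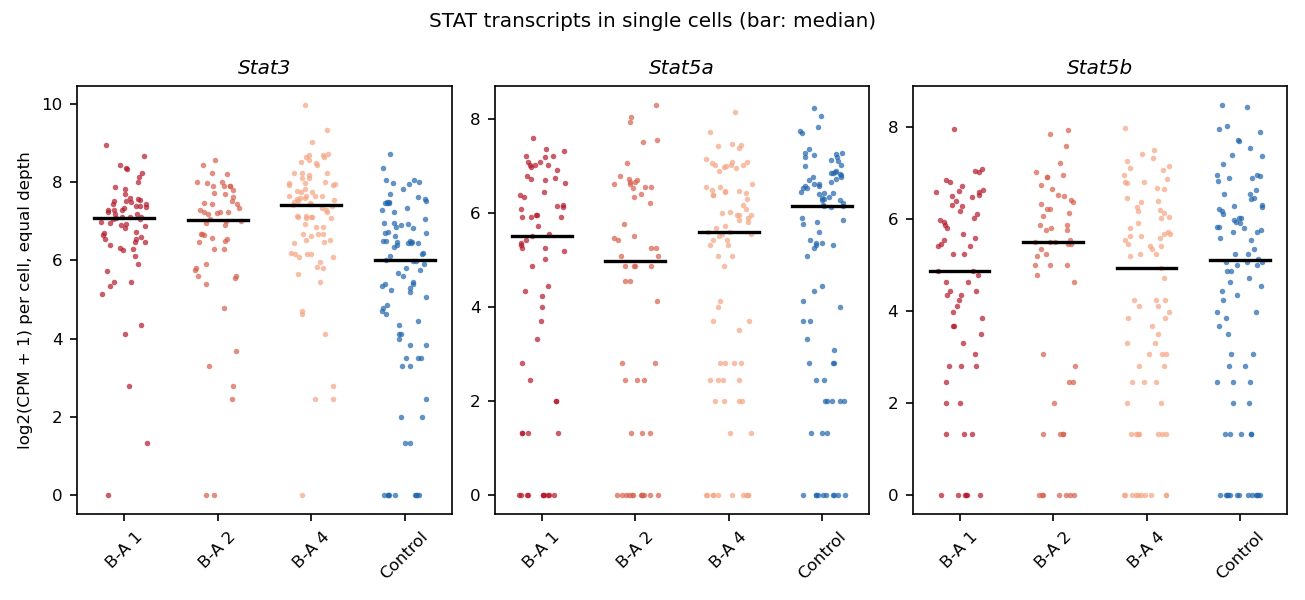
Stat3, Stat5a and Stat5b in single cells (y axis: log2(CPM + 1) at equal depth per cell) by set (x axis), with points for cells and bars for medians. The Stat3 medians of the BCR-ABL sets lie at 131 to 169 CPM, above the Control median of 62.97 CPM. For each gene the cells of all 4 sets overlap.

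Stat3 also stood higher within each of the 3 states marked by a lineage factor. Among cells with 10 or more reads of Gfi1, a granulocyte lineage factor, and fewer of Irf8, mean Stat3 was 151, 158 and 197 CPM over 35, 17 and 60 BCR-ABL cells and 107 CPM over 10 Control cells. In cells with both factors it was 140, 152 and 181 CPM over 13, 18 and 15 BCR-ABL cells and 81.4 CPM over 26 Control cells. In cells with Irf8 alone it was 153 and 114 CPM over 14 and 16 cells of BCR-ABL replicates 1 and 2, 299 CPM in the single such cell of replicate 4, and 83.98 CPM over 50 Control cells. Each BCR-ABL value of these 3 states lay above the Control value of the same state. In the few cells with neither factor, Stat3 was 65.2, 90.4 and 176 CPM over 3, 3 and 5 BCR-ABL cells and 95.6 CPM over 4 Control cells, so replicates 1 and 2 lay below Control there. Summing only the cells with Gfi1 gave a log2 fold change of 0.90 (edgeR p = 0.00967, adjusted p = 0.394), and only the cells with Irf8 gave 0.75 (edgeR p = 0.0333, adjusted p = 0.892).

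**Figure D3:**
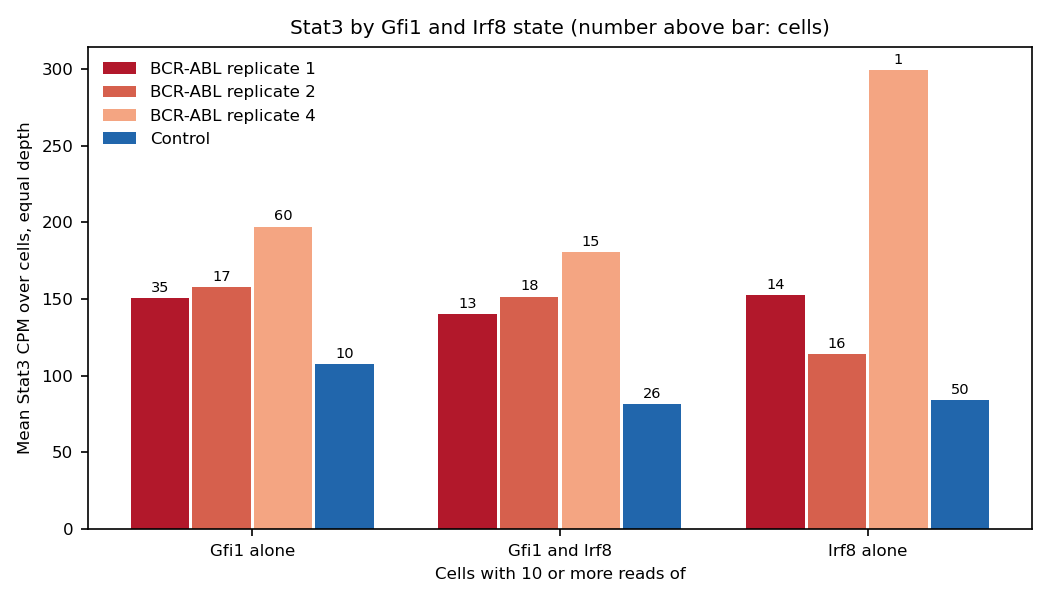
Mean Stat3 (y axis: CPM over cells at equal depth) in cells with 10 or more reads of Gfi1 alone, of both factors or of Irf8 alone (x axis), by set, with the number of cells above each bar. In each of the 3 states every BCR-ABL bar is taller than the Control bar, and the tallest rests on 1 cell.

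Stat5a and Stat5b, the paralogous factors that BCR/ABL activates, were both slightly lower by summed reads in BCR-ABL. Stat5a was at 58.5, 56.3 and 63.6 CPM in BCR-ABL and 67.2 CPM in Control, a log2 fold change of -0.16 with a standard error of 0.16 (edgeR adjusted p = 0.891). Stat5b was at 46.4, 55.4 and 47.95 CPM in BCR-ABL and 61.9 CPM in Control, a log2 fold change of -0.29 with a standard error of 0.19 (edgeR adjusted p = 0.825). All 3 BCR-ABL sets lay below Control for both, by less than 2 standard errors each. The genes are neighbours, Stat5a (ENSMUSG00000004043) at chr11:100859351-100885169 on the plus strand and Stat5b (ENSMUSG00000020919) at chr11:100780731-100850724 on the minus strand, 8626 bases apart, with near-identical stretches, so some reads may have been placed on either. Cells with at least 10 Stat5a reads numbered 45 of 65, 34 of 54 and 54 of 81 in BCR-ABL and 63 of 90 in Control. For Stat5b they numbered 44, 38 and 48 BCR-ABL cells and 60 Control cells. At 30 or more reads the Stat5a shares were 50.8%, 38.9% and 55.6% in BCR-ABL and 57.8% in Control. The Stat5b shares were 41.5%, 51.9% and 40.7% in BCR-ABL and 45.6% in Control. Without thinning, the median cell held 39.6, 32.8 and 53.6 CPM of Stat5a in BCR-ABL and 69.8 CPM in Control. The Stat5b medians were 23.96, 44.5 and 18.3 CPM in BCR-ABL and 34.99 CPM in Control.

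The balance between Stat3 and the Stat5 pair differed accordingly. Per kilobase of exon, the level of Stat3 divided by that of Stat5a and Stat5b together was 1.01, 0.931 and 1.32 in the BCR-ABL sets and 0.550 in Control. The mean ratio was 1.09 ± 0.207 in BCR-ABL (SD, n = 3) and 0.550 in Control (n = 1), which every BCR-ABL set exceeded. The ratio of Stat5a to Stat5b per kilobase was 1.76, 1.42 and 1.85 in BCR-ABL and 1.52 in Control, with Control inside the BCR-ABL range. Over cells, the mean Spearman correlation of the Stat5 transcripts was 0.02 across the 4 sets (54 to 90 cells each, 1 library per cell).

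Socs3 (ENSMUSG00000053113, chr11:117966079-117970047, minus strand), an inhibitor of gp130 and G-CSF receptor signalling, had the largest fold change of the 10. It was at 9.81, 7.97 and 1.67 CPM in BCR-ABL replicates 1, 2 and 4 and at 0.387 CPM in Control. Each BCR-ABL set lay above Control, but replicate 4 lay nearer to Control than to the other two. The log2 fold change was 4.09 with a standard error of 1.36 (edgeR p = 0.0336, adjusted p = 0.669). The reads behind it numbered 1237, 967 and 236 in BCR-ABL and 54 in Control, of which 50 came from 1 Control cell.

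Few cells held Socs3 reads in any set. At equal depth, Socs3 cells with at least 10 reads numbered 11 of 65, 6 of 54 and 3 of 81 in BCR-ABL, or 16.9%, 11.1% and 3.70%, and 1 of 90 in Control, or 1.11%. The exact 95% intervals were 8.76 to 28.3%, 4.19 to 22.6% and 0.770 to 10.4% in BCR-ABL and 0.0281 to 6.04% in Control. They cover counting error within a set, and those of replicates 2 and 4 overlap that of Control. In replicate 1, 6 of the 11 Socs3 cells were among its 14 cells with Irf8 alone, and in replicate 2 the count was 2 of 16 such cells, whereas 0 of 50 such Control cells reached 10 reads. In cells with both factors the counts were 2 of 13, 3 of 18 and 2 of 15 in BCR-ABL and 0 of 26 in Control. In cells with Gfi1 alone the counts were 3 of 35, 1 of 17 and 1 of 60 in BCR-ABL and 1 of 10 in Control, so the Control share of 10% was above all 3 BCR-ABL shares there. In cells with neither factor the counts were 0 of 3, 0 of 3 and 0 of 5 in BCR-ABL and 0 of 4 in Control.

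Cish (ENSMUSG00000032578, chr9:107296026-107302784, plus strand), whose product binds activated cytokine receptors, was read at 9.85, 2.23 and 6.56 CPM in BCR-ABL replicates 1, 2 and 4 and 1.02 CPM in Control. All 3 sets lay above Control, with a log2 fold change of 2.63 and a standard error of 1.04 (edgeR p = 0.0581, adjusted p = 0.707). A single cell supplied 88.7%, 53.9% and 59.8% of the Cish reads of the BCR-ABL sets and 38.03% of those of Control. With the cell of most reads left out of every set, the log2 fold change was 1.36. Summing only the cells with Gfi1 gave 0.82, and only the cells with Irf8 gave 0.42. Cells with at least 10 reads numbered 3, 3 and 4 BCR-ABL cells and 2 Control cells. The share was 5.04 ± 0.478% in BCR-ABL (SD, n = 3) and 2.22% in Control (n = 1). The exact intervals, at the level used for Socs3, were 0.962 to 12.9%, 1.16 to 15.4% and 1.36 to 12.2% in BCR-ABL. That of Control was 0.270 to 7.80%, and it overlaps all 3, so the shares cannot be told apart. The SD between sets does not include this counting error. Cish exons overlap antisense genes, and the counting does not state how strand was used.

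**Figure D4:**
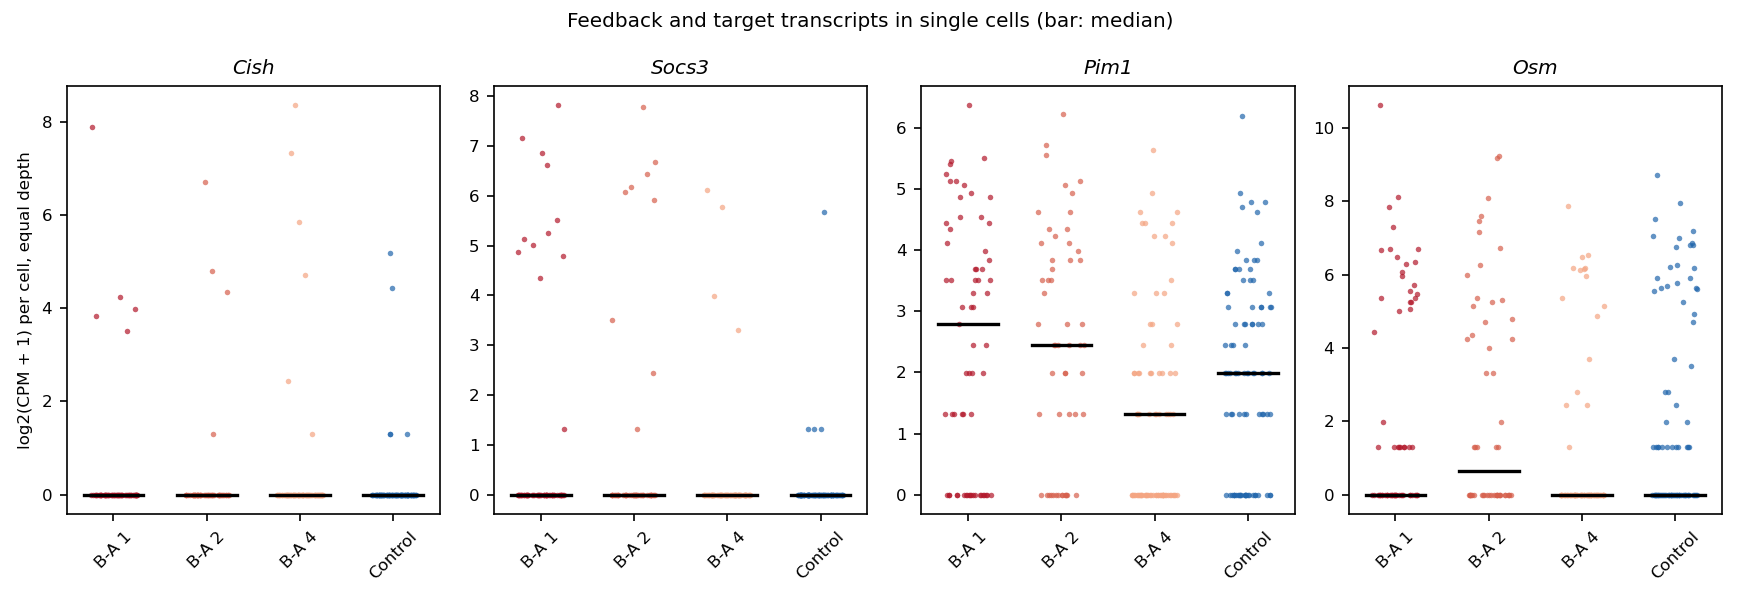
Cish, Socs3, Pim1 and Osm in single cells (y axis: log2(CPM + 1) at equal depth per cell) by set (x axis), with points for cells and bars for medians. Most cells have no read of Cish or Socs3, and single cells of the BCR-ABL sets reach more than 200 CPM of either.

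Socs1, which blocks Janus kinases directly, was lower in each BCR-ABL set. It was at 2.58, 3.06 and 2.35 CPM in BCR-ABL and 4.13 CPM in Control, a log2 fold change of -0.61 with a standard error of 0.44 (edgeR adjusted p = 0.831). Cells with at least 10 reads numbered 4, 4 and 7 BCR-ABL cells and 10 Control cells. Socs2, a regulator of growth hormone signalling, was close to unread. It had 4, 2 and 206 reads in BCR-ABL and 105 in Control, of which 102 came from 1 Control cell. Its direction therefore turned on single cells, and no direction is given.

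Pim1 and Pim2 encode serine/threonine kinases that sustain survival and translation downstream of STAT5. Pim1 was at 11.0, 10.1 and 4.13 CPM in BCR-ABL and 6.29 CPM in Control, so Control lay inside the BCR-ABL range (log2 fold change 0.44, standard error 0.67, edgeR adjusted p = 0.952). The share of cells with 10 or more Pim1 reads was 27.7%, 25.9% and 12.3% in BCR-ABL and 8.89% in Control, above Control in every set. The order turned round at a limit of 1 read, where the mean share was 64.6% in BCR-ABL and 71.1% in Control. Pim2 was at 7.75, 6.66 and 7.60 CPM in BCR-ABL and 7.57 CPM in Control, and its log2 fold change of -0.03 had a standard error of 0.32.

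Osm, encoding oncostatin M, a gp130 cytokine made by myeloid cells, was at 38.1, 35.6 and 10.6 CPM in BCR-ABL and 31.9 CPM in Control. Control lay inside the BCR-ABL range, and the log2 fold change was -0.16 with a standard error of 0.76 (edgeR adjusted p = 0.994). Cells with at least 10 reads numbered 22 of 65, 19 of 54 and 11 of 81 BCR-ABL cells and 24 of 90 Control cells. The transcript of its own receptor subunit, Osmr, was under 0.1 CPM in every set.

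Socs3, Pim1 and Osm were each lowest among the BCR-ABL sets in replicate 4, and so was a sum of dissociation and immediate early genes. The summed level of these 16 genes was 2444, 2867 and 677 CPM in BCR-ABL replicates 1, 2 and 4 and 2092 CPM in Control. None of the 16 was at 0 in all sets, but Atf3 was at 0 CPM in replicate 4. Control had the lowest Socs3 of all sets, 0.387 CPM, without a low sum. Over cells, the Spearman correlation of this sum with Pim1 was 0.25, 0.32 and -0.10 in BCR-ABL and 0.49 in Control, and with Socs3 it was 0.22, -0.05 and 0.01 in BCR-ABL and -0.07 in Control. The cells with 10 or more Socs3 reads held a median immediate early sum of 2926, 2914 and 999 CPM in BCR-ABL, against 1809, 1862 and 560.0 CPM in the other cells of the same sets. The single Socs3 cell of Control held 147 CPM, against 1830 CPM in the other Control cells. The part of these genes in the differences was not tested. Irf8 cells were also fewest in replicate 4, as given above.

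**Figure D5:**
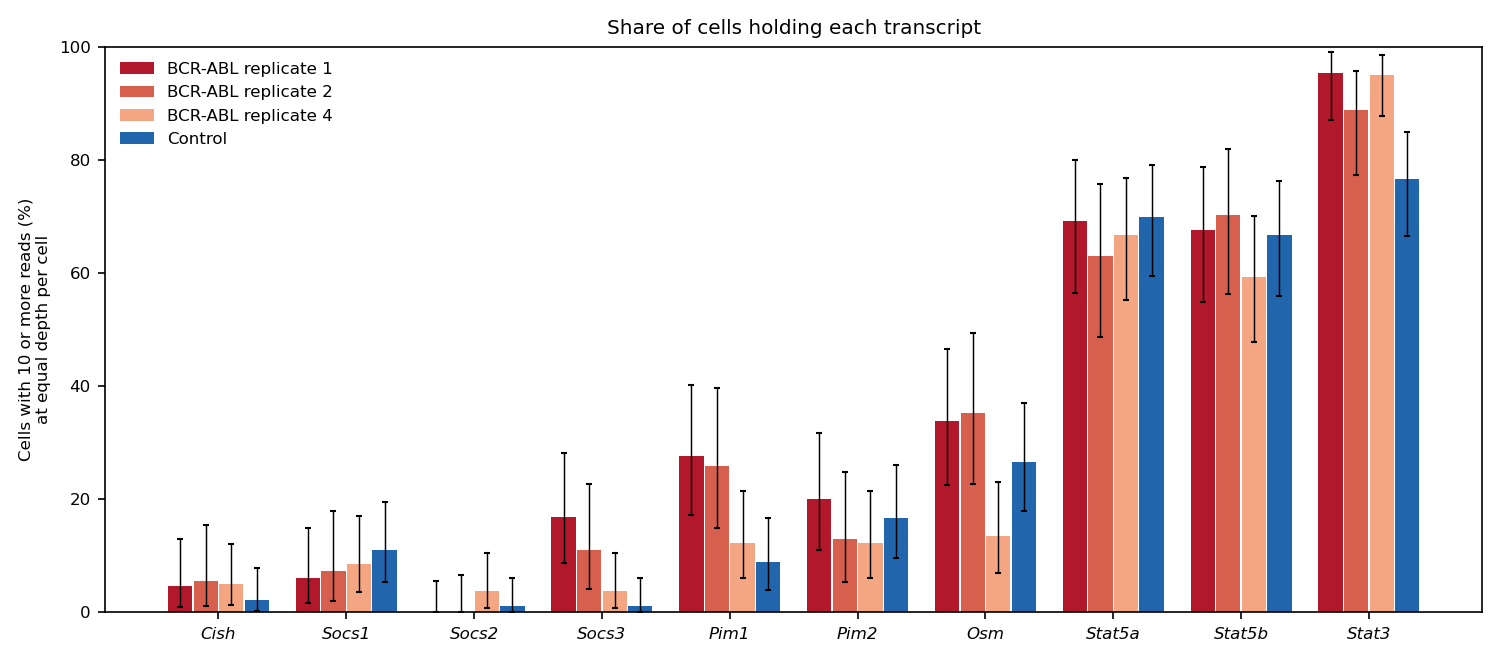
Share of cells with 10 or more reads of each gene at equal depth (y axis: percent of cells; bars by set, BCR-ABL replicates 1, 2 and 4 and Control) with exact 95% intervals that cover counting error only. The Stat3 bars stand at 88.9 to 95.4% in BCR-ABL and 76.7% in Control, and the Cish, Socs2 and Socs3 bars stay under 17% in every set.

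Cells with 10 or more reads of several of the 7 targets were a minority in every set. At 10 reads, 2 or more of them were held by 21 of 65, 15 of 54 and 9 of 81 BCR-ABL cells, or 32.3%, 27.8% and 11.1%, and by 13 of 90 Control cells, or 14.4%. Control lay inside the BCR-ABL range. With a limit of 1 read these shares were 64.6%, 59.3% and 33.3% in BCR-ABL and 65.6% in Control, above every BCR-ABL set. At 10 reads, Cish and Socs3 shared 1 cell of all 290, and the product of their shares gives 1.01. Socs3 and Pim1 had the highest mean correlation of all 45 pairs, 0.23. They shared 11 cells where the product of their shares within sets gives 5.06. Their Spearman correlation over cells was 0.32, 0.37 and 0.36 in BCR-ABL and -0.13 in Control, where 1 cell held Socs3. These values describe cells within a set, which are not replicates. With Irf8, Socs3 had correlations of 0.32, 0.07 and 0.23 in BCR-ABL and -0.12 in Control. Those of Pim1 with Irf8 were 0.30, 0.05 and 0.21 in BCR-ABL and 0.24 in Control. The part of lineage state in this pair was not tested. Of all 45 pairs of the 10 genes, 36 had a mean correlation within 0.1 of 0. In BCR-ABL replicate 4, 1 cell held 10 or more reads of 6 targets at once: Cish at 324 CPM, Socs2 at 34.1, Socs3 at 53.3, Pim1 at 48.9, Pim2 at 44.4 and Osm at 234 CPM. The same cell held 2562 CPM of the basophil and mast markers, against 329 CPM in the median cell of that set, and the part of these markers was not tested.

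Over cells, the genes most like Pim1 among 9994 compared were Ppp1r14b, with a mean Spearman correlation of 0.37 over the 4 sets, and S100a10, with 0.35, followed by Gm7332, Ifitm3 and Hist1h2ag. The gene most opposed to Pim1 was Mpo, the myeloperoxidase of granule-forming progenitors, at -0.40, followed by Lta4h at -0.34, and by Tmbim6, Elane, which encodes neutrophil elastase, and Itm2b, at -0.33 each. For Cish no correlation passed 0.23, the value of Imp4, followed by Nek1, Rpusd3, Utp15 and Lrrc24, with 4 to 6 cells with a read in each set, and none could be computed for Socs2. The cells of a set are not replicates, and they differ in depth and lineage state.

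Upstream of the 10 genes, 18 of 19 receptor genes were tested. At an unadjusted edgeR p under 0.05 the list had 3 genes higher and 4 lower in BCR-ABL, with 0 after adjustment. Of all genes tested, 3.79% were higher and 3.39% lower at that limit. The counts include genes with few reads, Il7r among the higher and Lifr among the lower. Their means over the 4 sets were 0.134 and 0.427 CPM. Il4ra, the shared IL-4 and IL-13 receptor chain, was at 68.03, 58.6 and 55.04 CPM in BCR-ABL and 33.6 CPM in Control. Il2rg, the common gamma chain, was at 34.1, 38.2 and 35.5 CPM in BCR-ABL and 20.5 CPM in Control. The interferon receptor chain Ifnar2 was at 131, 143 and 121 CPM in BCR-ABL and 221 CPM in Control. Il4ra, Il2rg and Ifnar2 were named for the smallest p among the list's genes with a mean of at least 5 CPM. Their separation of the sets follows in part from that choice. Each lay on 1 side of Control in every BCR-ABL set, with log2 fold changes of 0.87, 0.83 and -0.73. Over all genes tested, 23.2% lay above Control in all 3 BCR-ABL sets and 27.8% lay below. The gp130 chain Il6st was at 15.1, 36.6 and 9.90 CPM in BCR-ABL and 87.8 CPM in Control, and its partner Il6ra at 68.3, 85.5 and 63.1 CPM in BCR-ABL and 129 CPM in Control; both were named after their values were seen. Of the 4 Janus kinases 0 passed at an unadjusted p under 0.05, and Jak2, the erythropoietin and IL-3 receptor kinase, was at 31.4, 29.3 and 30.7 CPM in BCR-ABL and 40.8 CPM in Control. Jak3 and Jak1 had log2 fold changes of 0.47 and 0.24.

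Among the other STAT genes, Stat4 and Stat6 had log2 fold changes of 0.45 and -0.19. Of 5 other SOCS and PIM genes 1 was lower at an unadjusted p under 0.05, Socs6, at 18.3, 21.3 and 18.4 CPM in BCR-ABL and 39.99 CPM in Control (log2 fold change -1.03, edgeR adjusted p = 0.619). Socs7 and Socs4 had log2 fold changes of -0.55 and -0.30. Over all genes tested, 3.39% were lower and 3.79% higher at that limit. Of 13 other negative regulators 1 was lower at that limit and none higher. It was Usp18, an interferon-induced inhibitor, at 2.15, 0.395 and 1.81 CPM in BCR-ABL and 8.26 CPM in Control. The phosphatases Ptpn1 and Ptpn2 and the ubiquitin ligase Cbl had log2 fold changes of 0.27, 0.28 and 0.27.

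By the same limit, 3.79% of all genes tested were higher in BCR-ABL and 3.39% lower. Of 11 other STAT5 targets tested, 1 was higher in BCR-ABL and 0 were lower by that limit, with a median log2 fold change of 0.16. It was Myc, at 512, 564 and 506 CPM in BCR-ABL and 396 CPM in Control (log2 fold change 0.43, edgeR adjusted p = 0.669). Bcl2l1, the survival gene, was at 24.3, 20.2 and 32.3 CPM in BCR-ABL and 23.1 CPM in Control, and Ccnd2 at 187, 196 and 352 CPM in BCR-ABL and 234 CPM in Control. Ccnd1 and Cdkn1a had log2 fold changes of 1.41 and 0.50, with standard errors of 0.77 and 0.53. Of 8 STAT3 targets 1 was higher, Il4ra, which is also counted among the receptors, and the median was 0.30. Hif1a was at 123, 90.1 and 103 CPM in BCR-ABL and 70.2 CPM in Control, and Fgl2 had a log2 fold change of 0.68. Of 9 genes of MAPK feedback, which reads a second pathway of the fusion kinase, 0 passed in either direction and the median was -0.31; Dusp6 was at 33.4, 25.5 and 20.97 CPM in BCR-ABL and 40.6 CPM in Control, and Spred2 and Spry2 had log2 fold changes of -0.47 and 0.28. The median log2 fold change was -0.34 for the receptors, 0.06 for the Janus kinases, -0.30 for the other SOCS and PIM genes and -0.04 for the other negative regulators, beside 0.05 over all genes tested. After adjustment 0 genes of these lists were called by edgeR.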

How the data were processed

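Per the labels' protocols, single sorted cells were amplified by SMART-seq2 and made into Nextera XT libraries. The deposited values are raw counts of reads per Ensembl gene and well; GSNAP 2015-09-29, HTSeq 0.5.3p3 and the build mm10 are named in the submitters' processing notes. Annotation, strand setting and read filters: not given in the sources used. Gene reads were 44.9% of all reads, unaligned reads 40.9%, reads without a feature 7.67%, ambiguous reads 6.24% and spike-ins 0.265%; only gene reads entered library sizes.

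Symbols came from GENCODE vM21. Wells were meant to hold single cells, and doublets were not called. Shares of cells used cells thinned to 674952 reads, the 10 percentile, which left out 33 of 323. Counts were summed per set and tested with edgeR 4.0.16 in R 4.3.3 (TMM, filterByExpr, quasi-likelihood F test, two-sided, Benjamini-Hochberg adjustment over all 20324 genes, threshold 0.05), with 2 residual degrees of freedom. The standard errors given are the absolute log2 fold change divided by the square root of F, not a value that edgeR reports. Fold changes include a prior count, so for genes with few Control reads, such as Socs3, these standard errors are only approximate. The spread comes from the BCR-ABL sets alone and is taken to hold for the single Control set too. Nothing says that sets are separate animals, so p-values measure only the spread between these sets. DESeq2 1.42.0, limma 3.58.1 and other filters and cell choices were tried as alternatives. Exact 95% intervals are Clopper-Pearson. The scripts were tested on simulated data.

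The 10 genes and all gene lists were chosen with earlier results of these data known. Named are the 10 genes and, in each pathway list, the 3 genes with the smallest p at a mean of at least 5 CPM. The genes most alike over cells to Cish, Socs2 and Pim1 are named too. Il6st, Il6ra, Il7r, Lifr, Osmr, Usp18, Bcl2l1 and Ccnd2 were added after their values were seen. A result that this rule would name is not reported here. Correlations of single cells are descriptions without a test.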

Additional observations from a re-analysis of the deposited data

How the results depend on the processing

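No paired analysis was possible because there is 1 Control set. Under DESeq2 562 genes were called, 1 of them among the 10, against 0 in edgeR and limma-voom; Socs3 then had a log2 fold change of 4.09 and an adjusted p of 0.00213. In edgeR no gene was called under any alternative run, and leaving out each BCR-ABL replicate gave 0 to 0 calls among all genes and among the 10. Leaving out replicates gave log2 fold changes of 0.60 to 0.87 for Stat3, 3.66 to 4.55 for Socs3 and 2.11 to 3.04 for Cish. Over all 13 alternatives, Stat3 stayed at 0.60 to 0.90, Socs3 at 2.33 to 7.96 (the highest in Irf8 cells, with few Control reads) and Cish at 0.42 to 3.04. Directions turned for low or near-equal genes: Socs2 was 0.15 with thinned cells, 8.48 in Gfi1 cells, where almost no Control read is left and the value depends on the prior count, and 3.64 without the leading cells; Osm was 0.41 with thinned cells, 0.28 with cells weighted equally, 0.13 in Gfi1 cells and 0.24 without replicate 4, within -0.45 to 0.24 over the replicates left out; Pim2 was 0.019 in Irf8 cells and 0.038 without replicate 2, within -0.079 to 0.038.

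The share of cells, BCR-ABL minus Control, moved with the read limit: for Stat3 7.84 points at 1 read, 29.4 points at 30 reads and 10.6 points without thinning, and for Pim1 -6.47 points at 1 read and 2.18 points at 30 reads. For 2 or more targets, a limit chosen after seeing the data, it was -13.2 points at 1 read, 9.29 points at 10 and 2.61 points at 30. The limit of 10 reads for a cell to count as holding a transcript also came from an earlier look at these data. Leaving out replicates gave 15.3 to 18.6 points for Stat3, 6.30 to 12.9 for Socs3 and 10.3 to 17.9 for Pim1. The cause was not tested. Socs2 and Cish rest on too few cells for their shares to be told apart at this depth.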
